A study of Mus musculus with 3 samples.

Results

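Oligodendrocyte precursor cells (OPCs) were the nuclei that carried the deposited cell type label OPC in the single-nucleus RNA sequencing of mouse lumbar spinal cord, 181 of 14662 nuclei (1.23%). The nuclei came from 12 mice aged 90 days. Of these, 6 were B6.Cg-Tg(SOD1G93A)1Gur/J mice (SOD1G93A), which carry a human SOD1 transgene at high copy number with a mutation found in familial amyotrophic lateral sclerosis, and 6 were C57BL/6J littermates without the transgene (WT), with 3 females and 3 males of each genotype. The transgene is present in every cell of the animal, so that no comparison here separates its action in OPCs from its action in other cells. The lumbar cords of PBS-perfused mice were frozen, and in each of 3 batches, called pools A, B and C, the nuclei of 4 mice (a female and a male of either genotype) were stained with hashtag antibodies and loaded together on the 10x platform. The same hashtag marked the same sex and genotype in all 3 pools, so that the hashtag and the group cannot be told apart.

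OPCs divide in the adult cord and give rise to the oligodendrocytes that wrap axons in myelin. They are held in the precursor state by growth factors such as PDGF, which acts through the receptor Pdgfra, and they carry the proteoglycan Cspg4 (NG2) and a matrix of versican (Vcan) and tenascin-R (Tnr). On their way to myelin they lose Pdgfra and Cspg4 and pass through a short stage marked by Gpr17, Enpp6 and Bcas1, before Mbp and Mog appear. OPCs also receive synapses from neurons and hold glutamate and GABA receptors, sodium and potassium channels.

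The 12 mice gave unequal numbers of OPC nuclei. WT females of pools A, B and C gave 11, 14 and 26, and WT males gave 26, 24 and 19. SOD1G93A females gave 4, 11 and 2, and SOD1G93A males 19, 19 and 6. The UMI sum of a mouse, which counts distinct RNA molecules over its OPC nuclei, ran from 11083 in the SOD1G93A female of pool C, with 2 nuclei, to 951348 in the WT female of pool C. Single nuclei carried much of some sums: the largest nucleus held 74.6% of the UMIs of the SOD1G93A female of pool A (190366 of 255141), 62.2% in the SOD1G93A female of pool C, 56.6% in the SOD1G93A male of pool C and 13.4 to 35.3% in the other 9 mice. The median OPC nucleus held 10016 UMIs (range 967 to 331539), against 5786 in oligodendrocytes, 5338 in astrocytes and 12864.5 in neurons. Of the barcodes of OPC nuclei, 1 was also found in another pool. Xist was present in 66 of 68 OPC nuclei of females and at least 1 of 4 Y genes in 98 of 113 of males, while 14 male nuclei held Xist (48 UMIs) and 11 female nuclei held RNA of a Y gene (17 UMIs), whose source was not tested.

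The label was checked against its markers. In CPM, the UMIs of a gene scaled to the same total for the OPC sum of each mouse (median over the mice), Vcan stood at 724 in OPCs (range 444 to 1226) against 86.7 in microglia, the highest of the 7 other types that every mouse had. Tnr stood at 2517 CPM in OPCs and at 1173 CPM in motor neurons, the next highest type. Cspg4 did not set OPCs apart from the vessel wall, with 79.8 CPM in OPCs and 79.7 CPM in endothelial cells, but it stood at 4.86 CPM in oligodendrocytes and 1.25 CPM in neurons. Pdgfra (chromosome 5, 75152292 to 75198215, mm10) stood at 115 CPM in OPCs against at most 17.9 CPM in these 7 other types, which leave out fibroblasts. The types had been clustered on these genes, so that these levels describe OPCs and were not tested.

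Of 1828 genes with a median of at least 100 CPM in OPCs, 157 stood above all 7 other types compared and 22 by at least 2 times. Ependymal cells (93 nuclei) and fibroblasts (46), which not every mouse had, were left out of this comparison. The largest ratio was that of Mybpc1, a myosin-binding protein (198 CPM, 9.91 times the next type), followed by Vcan (8.35 times) and the long transcript Gm38505 (8.12 times). Pdgfra stood at 6.39 times, the integrin subunit Itga9 at 5.89, Cacng4, an auxiliary subunit of AMPA receptors, at 4.89, the guidance cue Sema3d at 4.85 and Gm4876 at 4.62 times. Xylt1, which starts the sugar chains of proteoglycans, stood at 4.08 times, the metalloprotease Adam12 at 3.76, the semaphorin Sema5b at 3.41 and the transcription factor Myt1 at 3.33 times. Megf11, Lhfpl3, Tmem132d, Ust, Ptpro, Usp24, Tnr and Mmp16 stood at 2.07 to 2.83 times. The other transcription factors of the lineage were less selective: Sox10 stood at 64.7 CPM in OPCs and 77.2 CPM in oligodendrocytes, and Sox6 at 873 CPM in OPCs and 932 CPM in astrocytes. Olig1 stood at 46.0 CPM in OPCs and 178 CPM in Schwann and meningeal cells, and Olig2 at 18.8 and 38.3 CPM. Nkx2-2 stood at 19.7 CPM in OPCs and 22.4 CPM in oligodendrocytes, while Sox5 and Sox8 stood highest in OPCs. Of the precursor genes used below, Ptprz1, Luzp2 and Cntn1 stood higher in astrocytes (889, 1436 and 1515 CPM) than in OPCs (810, 1338 and 1071 CPM). The rest of those genes stood highest in OPCs.

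Shares of nuclei with a UMI depend on depth, so each nucleus was also thinned to 3900 UMIs, which kept 163 OPC nuclei and left out 18. After thinning, Pdgfra was seen in 49.7% of OPC nuclei (71.3% without thinning), in 0.799% of oligodendrocytes and in 0.648% of neurons. Cspg4 was seen in 31.9% of OPC nuclei (65.8% without thinning) and in 1.90% of oligodendrocytes. Vcan was seen in 88.3% of OPC nuclei (98.9%), against 5.96% of oligodendrocytes and 4.73% of neurons, and Megf11 in 77.3% (90.6%), against 2.83% and 6.89%. Tnr was seen in 100% of OPC nuclei, but also in 17.4% of oligodendrocytes and 55.9% of neurons. At this equal depth Pdgfra, Cspg4, Vcan and Megf11 were seen far more often in OPCs than in oligodendrocytes and neurons, while Tnr was also common in neurons.

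The 181 nuclei lay mainly in 2 of the deposited clusters. Cluster 36 held 104 of them and was 93.7% OPC (111 nuclei in all). A further 70 lay in cluster 15. That cluster was poorly marked at first and was divided and labelled anew in the study. Cluster 15 held 323 nuclei, with 168 microglia and 81 oligodendrocytes beside the 70 OPCs. The remaining 7 nuclei lay in clusters 1, 6 and 8. In pools A, B and C, cluster 15 held 4, 8 and 16 OPC nuclei of WT females and 9, 9 and 4 of WT males. It held 2, 6 and 1 of SOD1G93A females and 7, 2 and 2 of SOD1G93A males. Cluster 36 held 6, 5 and 10 of WT females and 17, 14 and 15 of WT males. It held 2, 5 and 1 of SOD1G93A females and 11, 14 and 4 of SOD1G93A males. The OPC nuclei of cluster 15 held more UMIs, with a median of 17547.5 against 7748.5 in cluster 36. The deposited mapping to a spinal cord reference named 82 of the 104 nuclei of cluster 36 OPC, and 0 of the 70 nuclei of cluster 15, of which 49 were named oligodendrocytes and 18 neurons.

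The RNA of both parts differed in precursor genes and in genes of mature oligodendrocytes. The 24 precursor genes made up a median of 370 of 10000 UMIs in a nucleus of cluster 36 and 158 in cluster 15, where oligodendrocytes had 18.6, astrocytes 74.5 and neurons 62.5. The 20 genes of mature oligodendrocytes made up 19.5 of 10000 UMIs in cluster 36, close to the 18.4 of astrocytes, and 100.4 in cluster 15, where oligodendrocytes had 249. The 10th percentile of cluster 15 for mature genes (69.2) lay above the 90th percentile of cluster 36 (46.2). By gene, 23 of 24 precursor genes stood higher in the UMI sum of cluster 36 (median ratio 2.0), as did 17 of 18 detected genes of proteoglycans, tenascins and their synthesis (median ratio 2.09), and 0 of 19 detected mature genes (median ratio 0.289). Vcan stood at 1146 CPM in cluster 36 and 462 in cluster 15, Pdgfra at 178 and 68.9, Mbp at 349 and 1099 and Mog at 63.2 and 273. Clusters were built on such genes, so that these differences are a description. Vcan, Tnr, Cspg4, Ptprz1 and Xylt1 are in both the precursor list and the list of proteoglycans, tenascins and their synthesis. The median OPC nucleus of cluster 15 held precursor RNA above the medians of oligodendrocytes, astrocytes and neurons, and RNA of mature oligodendrocytes in the same droplet. The 168 nuclei of cluster 15 labelled microglia held mature RNA in a similar amount, with a median of 91.1 of 10000 UMIs (10th to 90th percentile 66.7 to 123), and less precursor RNA, with a median of 59.8. The 81 oligodendrocytes of cluster 15 held a median of 128 mature UMIs (10th to 90th percentile 87.3 to 204), below the 249 of all oligodendrocytes. Their precursor median was 36.7. Only nuclei with hashtags of several mice had been removed as doublets, so that a droplet with an OPC nucleus and an oligodendrocyte nucleus of 1 mouse, or a nucleus between both stages, cannot be told apart here. Whether the mature RNA belongs to the OPC nuclei of cluster 15 or is shared by its nuclei of other labels was not tested.

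**Figure D1:**
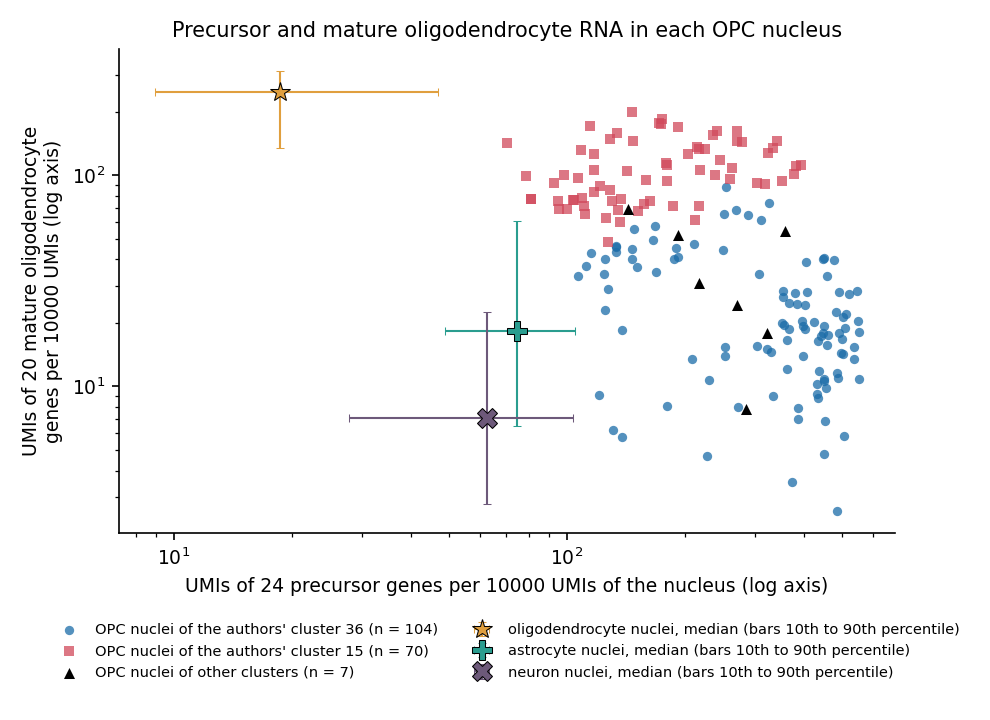
UMIs of 24 precursor genes (x axis, log scale) and of 20 mature oligodendrocyte genes (y axis, log scale) per 10000 UMIs in each of the 181 OPC nuclei, with the median of oligodendrocytes, astrocytes and neurons and bars from the 10th to the 90th percentile. Nuclei of cluster 36 (median 370 precursor and 19.5 mature UMIs) lie to the lower right, and nuclei of cluster 15 (medians 158 and 100.4) lie above them, between cluster 36 and the oligodendrocytes.

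Cluster 36 was itself uneven. Its 82 nuclei mapped as OPC had a median of 406 precursor UMIs and 7.33 UMIs of 9 neuron markers in 10000, and 6446.5 UMIs. The other 22 had 133 precursor UMIs, 40.3 UMIs of mature oligodendrocyte genes and 23.9 of the neuron markers, where the median neuron had 35.2, and they held 21344 UMIs. Measured against the median nucleus of each other type, 6 OPC nuclei reached the neuron markers, 0 the 6 oligodendrocyte markers and 0 the 7 astrocyte markers. The level of the 8 microglia markers was reached by 35 nuclei, but the median microglial nucleus held only 1.64 UMIs of these in 10000. In all, 40 of 181 OPC nuclei (22.1%) reached at least 1 of these levels, 24 of 120 in WT and 16 of 61 in SOD1G93A mice. Summed over the OPC nuclei of a mouse, the neuron markers ran from 1127 to 1708 CPM in WT (median 1511) and from 812 to 2258 in SOD1G93A mice (median 1874), and the astrocyte markers from 534 to 1380 (median 1004) and from 145 to 1534 (median 649). The oligodendrocyte markers had medians of 2570 and 2278 CPM and the microglia markers of 117 and 114 CPM.

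Few OPC nuclei held RNA of many cell cycle genes. With each nucleus at 3900 UMIs, 6 of 163 OPC nuclei had UMIs of at least 5 of 36 cell cycle genes (3.68%, exact 95% interval 1.36 to 7.84%, which covers counting error only), a level chosen after the values had been seen. The same held for 2 of 1628 oligodendrocytes (0.123%) and for 0 of 1129 astrocytes, 0 of 220 microglia and 0 of 8482 neurons. Without thinning, 28 of 181 OPC nuclei passed, 15 of them in cluster 15, as did 105 of 223 microglia, whose median depth was 46927 UMIs, 36 of 2165 oligodendrocytes and 429 of 8800 neurons. All 6 nuclei lay in cluster 36 and were mapped as OPC, and 0 of 70 were in cluster 15, which allows a share of up to 4.29% by a limit of 3 counts, while the exact 95% interval ends at 5.13%. Each held UMIs of Mki67, a protein of dividing nuclei, and of Top2a, the topoisomerase of mitosis.

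The most cell cycle UMIs were in a nucleus of the SOD1G93A male of pool B. In it 79 of 8505 UMIs fell on 19 cell cycle genes, with 14 UMIs of Top2a and 4 of Mki67. Per 10000 UMIs it held 92.9, below the 101 of the nucleus named next. A nucleus of the WT female of pool C had 75 UMIs on 18 of the genes, with 10 of the kinesin Cenpe and 6 of Aspm, a protein of the spindle poles. Nuclei of the WT females of pools B and A had 54 UMIs on 17 genes and 36 on 15. The last 2, from the SOD1G93A female of pool A and the WT female of pool C, had 26 UMIs each, on 11 and 8 genes. Of the genes at the replication fork that were looked at in single nuclei, Pcna and Mcm3 had 0 UMIs in all 6. Mcm6 had 3 UMIs in the nucleus of the WT female of pool B. Other such genes of the list, for example Mcm2 and Pola1, were not looked at in single nuclei. The 6 nuclei kept precursor RNA, at 229 to 488 of 10000 UMIs, and 5 of them held at most 15.1 UMIs of mature genes in 10000. They came from 5 mice, 4 from WT and 2 from SOD1G93A mice, and 5 from females and 1 from a male. No test over mice was run on a level chosen with these nuclei in view.

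Genes of the committed stage were spread over the lineage and did not mark OPCs as a list. After thinning, 131 of 163 OPC nuclei (80.4%) had UMIs of at least 3 of the 17 genes in the table, with 80.7% in cluster 36 and 80.0% in cluster 15, but so had 73.6% of oligodendrocytes and 55.7% of astrocytes, against 6.93% of neurons. Single genes of the list differed more between the types. Gpr17 was seen in 11.7% of thinned OPC nuclei (31.5% without thinning), against 1.11% of oligodendrocytes and 0.224% of neurons. Neu4, a sialidase of this stage, was seen in 23.3% (53.0% without thinning), against 0.676% of oligodendrocytes. Enpp6, which marks newly formed oligodendrocytes, was seen in 17.8% of OPC nuclei (37.6%), 10.2% in cluster 36 and 27.1% in cluster 15, and in 68.5% of oligodendrocytes.

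The nuclei with the most committed RNA were looked at on their own. Among the 163 nuclei of at least 3900 UMIs, the 10 with the most committed RNA had 54.8 to 103 UMIs of the 17 genes in 10000, against a median of 15.9 in the other 153. The number 10 marks no gap, since the next nuclei had 53.7, with 1 UMI of Cspg4, and 53.1, with 1 UMI of Pdgfra. They came from 7 mice, 8 of them lay in cluster 36 and 6 were mapped as OPC. Pdgfra, which is not in the list, had 0 UMIs in all 10, which allows up to 20.5 CPM, and stood at 110.3 CPM in the other 153 nuclei, of which 122 held it. Cspg4 had 2 UMIs in 1 of the 10 nuclei and was held by 110 of the other 153. In the other 80 nuclei of cluster 36 of this depth, 69 held Pdgfra. The precursor list as a whole was still at a median of 180.1 UMIs in 10000, and mature genes were at 42.0.

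Within the list, Gpr17 was held by 9 of the 10 nuclei (178 CPM against 18.2 in the other 153) and Bmp4, a secreted factor of this stage, by 5 of 10 against 8 of 153. A nucleus of the WT male of pool B with 36434 UMIs held 13 UMIs of Gpr17, 4 of Neu4, 4 of Bmp4, 67 of Bcas1, 51 of Tns3, 68 of the kinase Fyn, and 0 of Pdgfra and Cspg4. The 10 nuclei had been chosen on the list, so that its genes in them are a description, and they were 6 from WT and 4 from SOD1G93A mice, with 1 from a female.

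**Figure D2:**
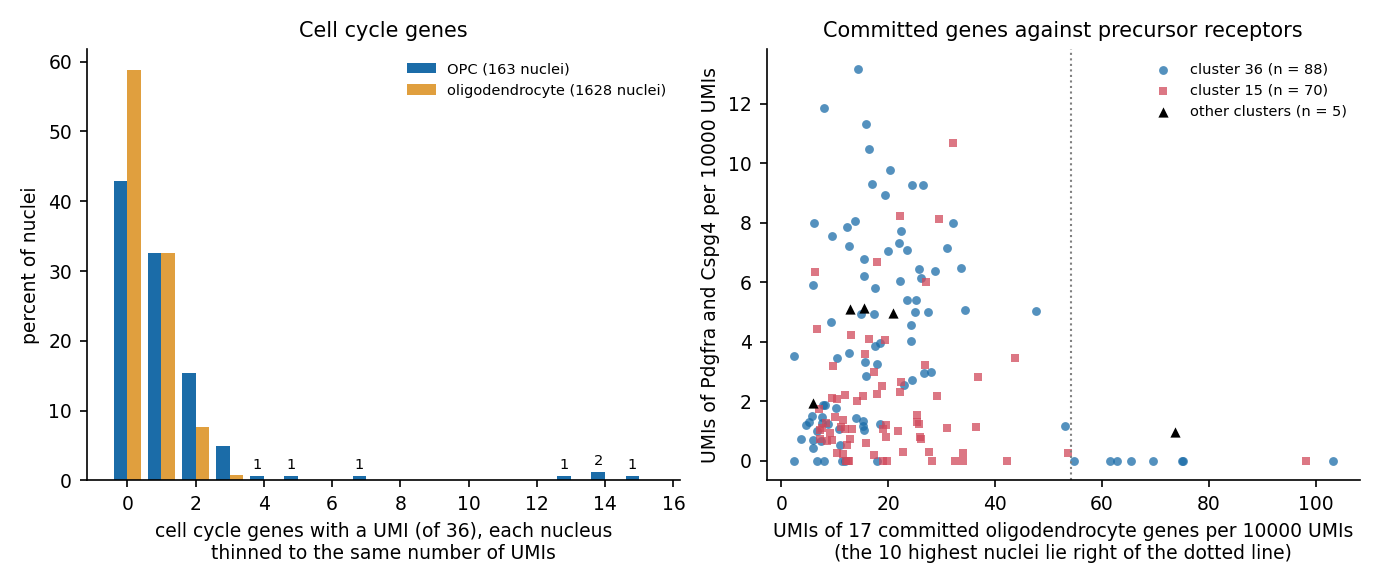
Left, percent of thinned OPC (163) and oligodendrocyte (1628) nuclei by the number of 36 cell cycle genes with a UMI, with the number of nuclei above the bars from 4 genes on; 6 OPC nuclei lie at 5 genes or more. Right, UMIs of Pdgfra and Cspg4 against UMIs of 17 committed genes, both per 10000 UMIs, in OPC nuclei of at least 3900 UMIs; 9 of the 10 nuclei right of the dotted line lie at 0.

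The share of nuclei that were OPCs did not differ between genotypes beyond the spread of the mice. It was 1.42% ± 0.492 (SD, n = 6) in WT, from 0.901 to 2.12%, and 0.941% ± 0.441 (n = 6) in SOD1G93A mice, from 0.315 to 1.35%, and the groups overlapped. The log2 ratio in edgeR's quasi-likelihood test was -0.54 with an FDR of 0.537 over 10 types. With limma on the log2 odds, the difference was -0.62 with a 95% interval of -1.54 to 0.30, which still holds a loss of over 2 times. Of OPC and oligodendrocyte nuclei together, 9.25% ± 2.22 were OPCs in WT and 6.09% ± 3.15 in SOD1G93A mice, lower in 4 of 6 pairs of mice of the same pool and sex, a difference of -3.17 points (two-sided exact permutation test, p = 0.188 over 64 arrangements). Over sex, the log2 ratio of females to males was -0.38 (edgeR, FDR = 0.585), and a difference of the genotype effect between the sexes was not shown (edgeR, FDR = 0.865). The share of OPC nuclei with at least 3 committed genes was 77.0% ± 18.1 in WT and 78.2% ± 17.8 in SOD1G93A mice (n = 6 each), 1.25 points apart (exact permutation test, p = 1.0). That difference was -3.28 points with at least 2 genes and 9.71 points with at least 4, and its direction is not settled.

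**Figure D3:**
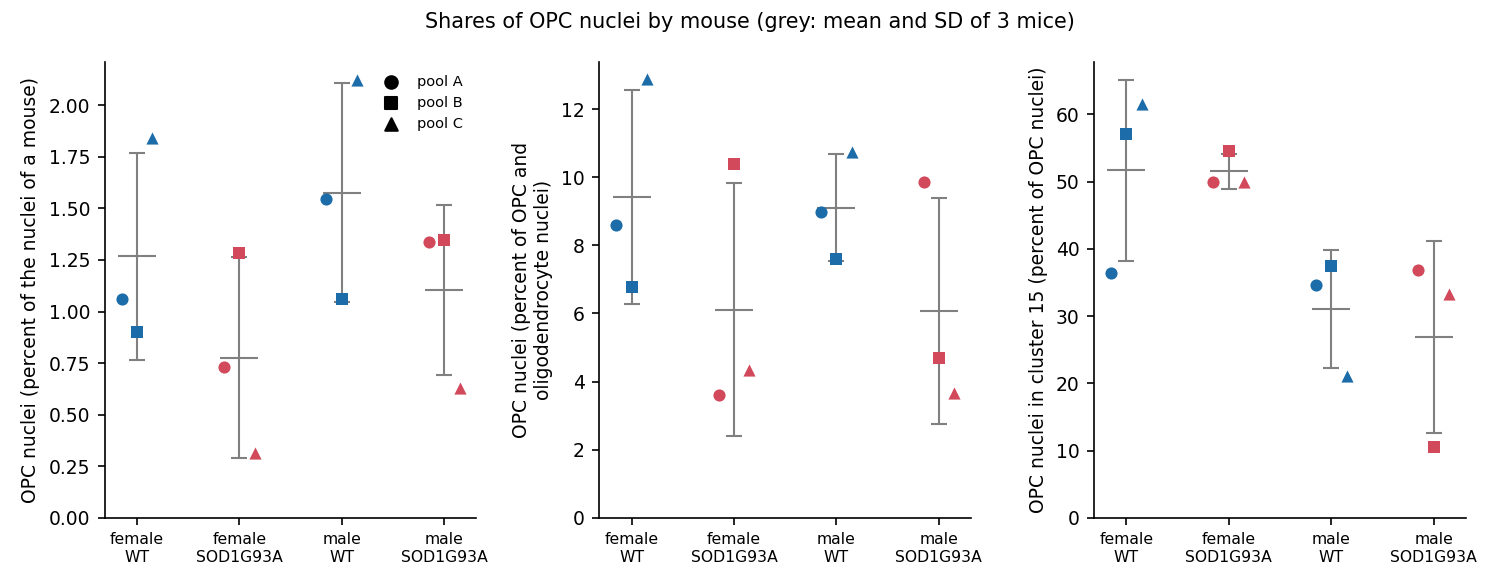
Shares of OPC nuclei in each of the 12 mice by sex and genotype: of all nuclei of the mouse (left), of OPC and oligodendrocyte nuclei (middle), and the percent of OPC nuclei that lay in cluster 15 (right). Symbols are pools, and grey bars are the mean and SD of 3 mice; in the left plot WT and SOD1G93A mice overlap, and in the right plot females (36.4 to 61.5%) lie above males (10.5 to 37.5%) but for the WT female of pool A.

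The genotypes were compared on UMI sums per mouse (pseudobulking) with limma's voom and a term for the pool, with genes called differentially expressed (DEGs) at FDR < 0.1. In such sums fewer nuclei that express a gene and less RNA in each nucleus cannot be told apart. The transgene itself was checked first. Reads of human SOD1 RNA can be counted as mouse Sod1 (chromosome 16, 90220754 to 90226329), and both cannot be told apart. In CPM of scaled library sizes, used for single genes from here on, the lowest, median and highest Sod1 levels were 20.5, 36.02 and 94.7 in WT OPCs and 69.3, 118 and 372 in SOD1G93A OPCs. The groups overlapped, since the WT female (94.7) and the WT male (71.5) of pool A lay above the lowest SOD1G93A mouse, and Sod1 stood higher in the SOD1G93A mouse in 6 of 6 pairs. The log2 fold change of 1.64 (SE 0.33) had a limma FDR of 0.165 and was not called, and with edgeR it had an FDR of 0.0947. Without the SOD1G93A female of pool A it was 2.32 (limma FDR 2.86e-05) and without the SOD1G93A male of pool B 1.77, and in OPC nuclei of cluster 15 alone 2.10 (FDR 0.00547). Cluster 15 held 1 to 7 OPC nuclei of a SOD1G93A mouse.

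Of 4868 genes, 2 were DEGs (0.0411%), and both were higher in SOD1G93A OPCs. Necab1 (chromosome 4, 14952245 to 15149794), a calcium-binding protein named for its expression in neurons, stood at 33.2 ± 16.4 CPM (SD, n = 6) in WT and 84.7 ± 51.6 in SOD1G93A OPCs. Its UMIs were 5, 2 and 34 in WT females of pools A, B and C, 13, 10 and 7 in WT males, 37, 14 and 1 in SOD1G93A females and 22, 5 and 11 in SOD1G93A males. All 37 UMIs of the SOD1G93A female of pool A, the mouse of highest level (170 CPM), lay in 1 nucleus of cluster 15. Necab1 stood higher in the SOD1G93A mouse in 6 of 6 pairs, while the groups overlapped, since the SOD1G93A male of pool B (28.9 CPM) lay below 4 WT mice. The log2 fold change was 1.49 (SE 0.26, limma FDR = 0.0521). Pcsk5 (chromosome 19, 17432319 to 17837632), a protease that cuts precursor proteins, stood at 67.7 ± 22.4 CPM in WT and 170 ± 96.1 CPM in SOD1G93A OPCs. Its lowest, median and highest levels were 34.2, 66.2 and 98.4 in WT and 67.5, 148 and 322 in SOD1G93A OPCs, and it was higher in 5 of 6 pairs. The log2 fold change was 1.48 (SE 0.27, limma FDR = 0.0521), and 42 of the 53 Pcsk5 UMIs of the SOD1G93A female of pool A lay in the same nucleus. Without the largest nucleus of each mouse, an analysis added after seeing the data, 0 of 3775 genes were called (254 at an unadjusted p under 0.05). Pcsk5 then had 1.24 (limma FDR = 0.266) and Necab1 had too few UMIs to be tested.

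UMIs of both genes were also found in nuclei labelled neurons and microglia. In unscaled CPM, Necab1 had a median of 124 in WT neurons and 118 in SOD1G93A neurons, against 31.7 and 73.6 in OPCs, and Pcsk5 had 169.7 and 174 in neurons against 58.8 and 129 in OPCs. In nuclei labelled microglia the medians were 68.1 and 95.3 for Necab1 and 96.9 and 118 for Pcsk5, but their UMIs also held neuron markers at 2308 CPM, against 258 CPM of microglia markers. Of 9 neuron markers, 7 were tested and all 7 had fold changes above 0, as had 49.1% of all genes, with a median log2 fold change of 0.34 against -0.01 over all genes, and Rbfox3 had the smallest p (log2 fold change 0.51, limma FDR = 0.731). Without the 40 OPC nuclei that held RNA of other types at the levels given above, the log2 fold changes were 0.76 for Necab1 and 0.85 for Pcsk5 and both calls were lost (limma FDR = 0.999). Of the 40, 35 had reached the level of the microglia markers and 6 that of the neuron markers. Among the 40 was the nucleus of 190366 UMIs of the SOD1G93A female of pool A, with 1.84 UMIs of microglia markers in 10000. It held all 37 Necab1 UMIs and 42 of the 53 Pcsk5 UMIs of that mouse. The nucleus of 331539 UMIs of the WT female of pool C was kept. Leaving out RNA of other types and leaving out the nucleus of 190366 UMIs cannot be told apart here. In cluster 36 alone Necab1 had 2.35 (FDR 0.913) and in cluster 15 alone 0.77 (FDR 0.545), and Pcsk5 had 1.61 (FDR 0.958) and 1.28 (FDR 0.0513). Both calls were also lost without the WT female of pool C, the WT male of pool C, the SOD1G93A female of pool A or the SOD1G93A male of pool C, where the log2 fold changes stayed at 1.25 or more, and without the term for the pool (1.26 with FDR 0.684 for Necab1 and 1.38 with FDR 0.197 for Pcsk5). The call of Pcsk5 was also lost without the WT female or the SOD1G93A male of pool A (FDR 0.124 and 0.294), with nuclei thinned to at most 10016 UMIs (FDR 0.891) and with a minimum count of 30 (FDR 0.241), where Necab1 was not tested. Without a filter on low values Necab1 was not called (FDR 0.109).

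**Figure D4:**
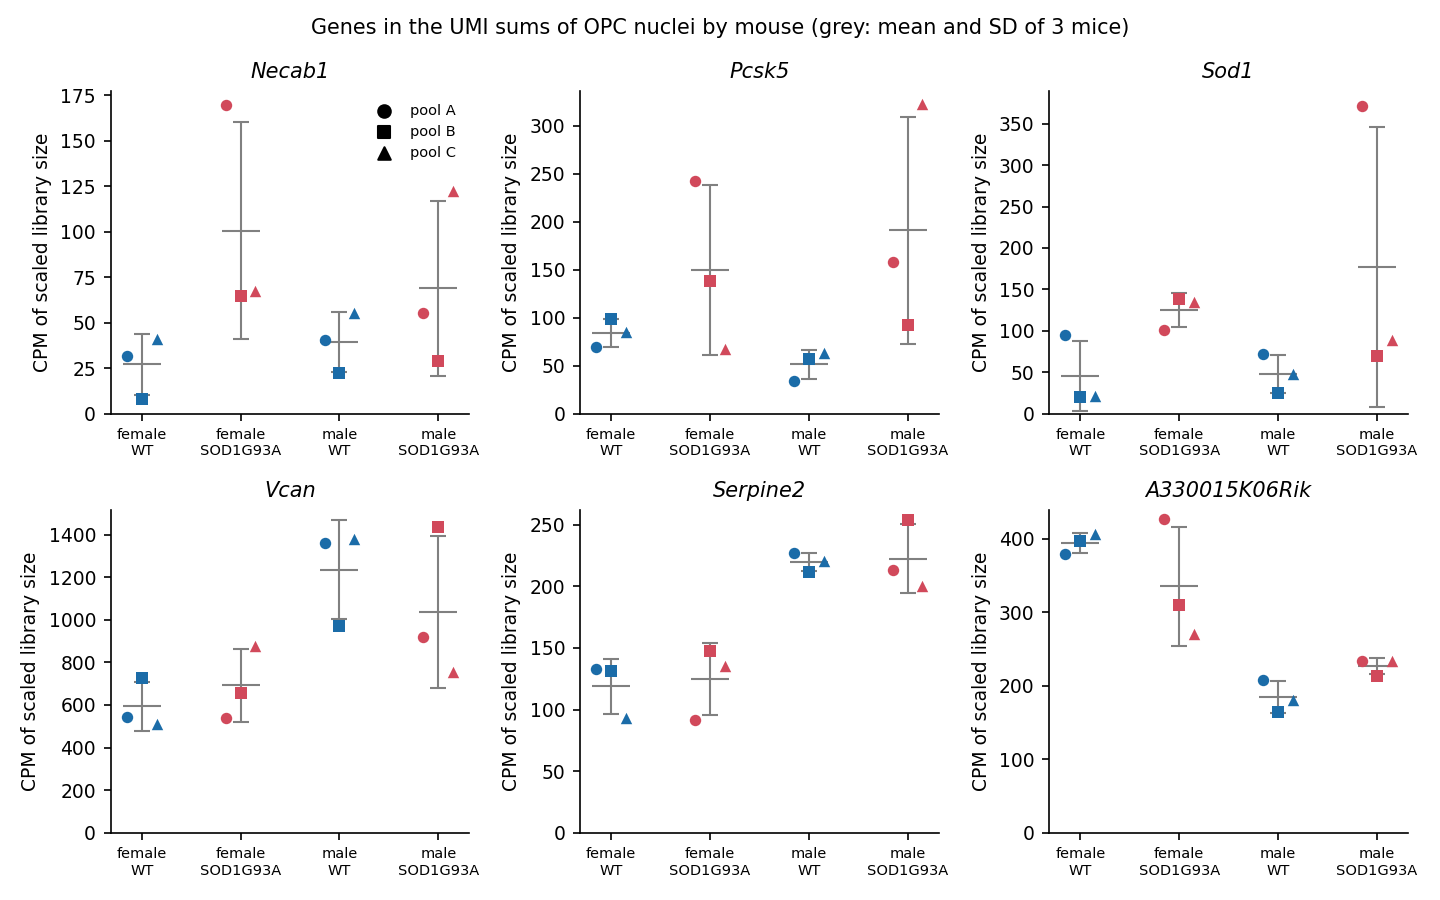
CPM of scaled library size (y axes from 0) of Necab1, Pcsk5, Sod1, Vcan, Serpine2 and A330015K06Rik in the OPC sum of each of the 12 mice; symbols are pools and grey bars the mean and SD of 3 mice. Necab1 and Sod1 lie higher in the SOD1G93A mouse of every pair with overlapping groups, and for Serpine2 and A330015K06Rik the 6 females do not overlap the 6 males.

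Beyond these 2 genes the comparison gave a ranking but no calls in limma with all OPC nuclei and mice. At an unadjusted p under 0.05, 162 genes were higher (3.33%) and 149 lower (3.06%) in SOD1G93A OPCs. In all 6 pairs, 33 genes were higher and 106 lower. The female pair of pool C rests on the SOD1G93A mouse of 11083 UMIs, in which 1 UMI gives 67.5 CPM and 1983 of the 4868 tested genes had 0, among them 69 of the 106 lower genes. In the other 5 pairs 202 genes were higher and 174 lower throughout. The genes named next had 1 direction in all 6 pairs. In that mouse Necab1, Mycbp, Syt7, Hectd2, Sf3b2, Pak2, Cep97 and Zbtb16 had 1 UMI each, and Htra1, Tsc22d3, Lhfp and Nucks1 had 0. Sod1, Sergef and Agmo had 2, and Kcnd3, Pip5k1b, Tox3, Gm16168 and Arhgef28 had 3 to 6. Among genes higher in all pairs, the smallest p after Necab1 and Sod1 belonged to Sergef (log2 fold change 0.87), Mycbp, a partner of Myc (1.23), Kcnd3, an A-type potassium channel (0.74), and Syt7, a calcium sensor of vesicle fusion (0.92), each with a limma FDR of 0.327. They were followed by Pip5k1b, a lipid kinase (0.83), Hectd2, a ubiquitin ligase (1.22), the splicing factor Sf3b2 (0.82) and Tox3 (0.66), with FDRs of 0.358 to 0.578. Kcnd3 was called with DESeq2 (0.76, FDR 0.0789) and, in limma, without the SOD1G93A female of pool C (0.82, FDR 0.0668), and had 0.23 without the largest nucleus of each mouse (FDR 0.858). Mycbp stood at 21.1 ± 9.94 CPM in WT and 54.9 ± 12.2 in SOD1G93A OPCs, on 104 UMIs in all.

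Among genes lower in all pairs, Htra1, a secreted serine protease, stood at 99.4 ± 16.9 CPM in WT and 50.1 ± 32.8 in SOD1G93A OPCs (log2 fold change -0.85, limma FDR = 0.358). Tsc22d3, which glucocorticoids induce, stood at 85.2 ± 21.2 and 39.4 ± 25.6 CPM (-0.85, limma FDR = 0.402). Zbtb16, a transcription factor, stood at 435 ± 108 and 255 ± 199 CPM (-0.86, limma FDR = 0.567). Agmo, an enzyme of ether lipids (-0.87), Lhfp (-1.02, but -0.43 without the largest nuclei and -2.11 in cluster 15 alone, where it was called), the kinase Pak2 (-0.76), Cep97, a protein of centrioles (-0.78, but 0.15 with thinned nuclei), Gm16168 (-0.64), Arhgef28 (-0.57) and Nucks1 (-0.81) had limma FDRs between 0.477 and 0.530.

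The gene groups of OPC biology held no DEG. Of 24 precursor genes, 21 were tested, and 0 had an unadjusted p under 0.05 (median log2 fold change -0.06): Pdgfra had 0.21 (SE 0.25), Vcan -0.07 (SE 0.19) and Tnr -0.16 (SE 0.18). In cluster 15 alone 3 of 20 had p under 0.05 and were higher (median 0.12), where 4.32% of 4170 genes did so, Pdgfra among them (0.55, SE 0.26, limma FDR = 0.596). In cluster 36 alone 0 of 18 had p under 0.05 (median -0.12), where 2.04% of 2548 genes were higher and 1.73% lower at that level. Of the committed genes 8 were tested, 7 of which had fold changes below 0 (median -0.37), against 50.9% of all genes, and 2 had p under 0.05, against 3.06% of all genes, Fyn with -0.55 (SE 0.23, limma FDR = 0.695), lower in 6 of 6 pairs, and Tcf7l2, a Wnt effector needed for the step to myelin, with -0.80 (SE 0.36, FDR 0.772). Bcas1 had -0.37 (SE 0.19). The median of the committed genes was -0.52 in cluster 36 alone (7 of 7 below 0) and -0.38 in cluster 15 alone (7 of 8).

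Of 17 mature oligodendrocyte genes tested, 14 had fold changes below 0 (median -0.18), against 50.9% of all genes, and 1 had p under 0.05. The medians of both clusters had opposite signs: in cluster 36 alone the median was 0.53 over 11 genes, with 2 at p under 0.05 and higher, against 2.04% of all genes there, Car2 (2.01, SE 0.55) and Mag (1.58, SE 0.56), and in cluster 15 alone it was -0.32 over 18 genes with 3 at p under 0.05 and lower, against 3.93% of all genes there, among them St18 (-0.46, SE 0.18) and Car2 (-0.69, SE 0.30). The difference between the clusters was not tested. All OPC nuclei of cluster 36 together held 67 UMIs of Car2 and 65 of Mag. The SOD1G93A female of pool C had 1 nucleus there. It held 88.5 UMIs of mature genes in 10000, where the 90th percentile of cluster 36 was 46.2. Of 36 cell cycle genes only Diaph3 (-0.75, SE 0.30, limma FDR = 0.695) and Pola1 (-0.19) were tested, and the others had too few UMIs.

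Among 7 growth factor receptors tested, 0 had p under 0.05 (median 0.15), with Fgfr2 at -0.32 (SE 0.18), Erbb4 at -0.32 (SE 0.21), Ntrk2, the receptor of BDNF, at 0.15 (SE 0.18) and Igf1r at -0.01 (SE 0.17). Of 20 genes listed as brakes on differentiation 7 were tested, namely Lingo1, the BMP receptors Bmpr1a, Bmpr1b and Bmpr2, and Lgr4, Lrp6 and Ctnnb1 of the Wnt pathway, and 0 had p under 0.05 (median -0.04). Lingo1 had 0.34 (SE 0.39), and the Notch genes of the list had too few UMIs for a test. Of 12 genes of the proteoglycan matrix, 1 had p under 0.05, against 3.06% of all genes lower and 3.33% higher, the brevican gene Bcan (-0.69, SE 0.30, limma FDR = 0.731), and Cspg5 had 0.55 (SE 0.28). In cluster 15 alone Cspg5 was called (1.16, SE 0.26, limma FDR = 0.0792), as 1 of 12 genes there (0.288%), and in cluster 36 alone it had -0.04 (SE 0.41, FDR 0.998).

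Of 29 glutamate and GABA receptor genes, 19 had fold changes above 0 (median 0.30), against 49.1% of all genes, and 2 had p under 0.05, against 3.33% of all genes higher: the kainate receptor Grik1 with 0.92 (SE 0.31, limma FDR = 0.590) and the metabotropic receptor Grm7 with 0.42 (SE 0.17, FDR 0.695). The AMPA receptor genes Gria2 and Gria4 had 0.05 (SE 0.16) and -0.13 (SE 0.15). Of 22 ion channel genes, 18 had fold changes above 0 (median 0.22), and Kcnd3 was the 1 with p under 0.05. These groups are shared with neurons, and the neuron markers in the same sums had a median of 0.34. Their part in the receptor and channel values was not tested. In cluster 36 alone the medians were 0.07 for receptors, 0.00 for channels and 0.26 for the neuron markers. In cluster 15 alone they were 0.21, 0.28 and 0.27. There 3 of 27 receptors and 2 of 21 channels were higher at p under 0.05, against 4.32% of all genes. Of 16 immune genes only Stat3 (0.26, SE 0.23) and Il33 (-0.05, SE 0.28) had enough UMIs, and of 28 stress genes 11, with 0 at p under 0.05 (median 0.15), such as Hspa8 at 0.56 (SE 0.30) and Hspa5 at -0.31 (SE 0.29). Of 5 astrocyte markers tested 3 had fold changes below 0 (median -0.37) and 2 had p under 0.05, against 3.06% of all genes lower: Slc4a4, a bicarbonate transporter of astrocytes, had -1.49 (SE 0.37) and the glutamate transporter Slc1a2 -1.19 (SE 0.30), both with a limma FDR of 0.360. Both were called without a filter on low values and in cluster 15 alone, and Slc4a4 also with DESeq2. In cluster 36 alone they had -0.31 (SE 0.92) and -0.71 (SE 0.39). Of the other markers, Slc1a3, a glutamate transporter, had 0.34 (SE 0.23) and was higher in 4 of 6 pairs, the water channel Aqp4 had 0.01 (SE 0.65) and the gap junction gene Gja1 -0.37 (SE 0.56).

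Whether an effect was particular to OPCs was tested against the oligodendrocytes of the same mice. Of 4853 genes, 0 differed in their genotype effect at FDR < 0.1 in limma, and 233 had an unadjusted p under 0.05. Pcsk5 had the smallest p, with a genotype effect 1.77 higher in OPCs on the log2 scale (SE 0.37, limma FDR = 0.957), and Necab1 had 1.25 (SE 0.29, FDR 0.959). For Sod1 the difference was 0.55 (SE 0.33).

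Sex gave more calls than genotype. Of 4868 genes, 9 were DEGs between females and males (0.185%). The 6 on the sex chromosomes were Uty, Eif2s3y, Ddx3y and Kdm5d of the Y chromosome, with log2 fold changes of -4.98 to -3.56, and Xist (5.02) and Tsix (4.33) of the X chromosome, where Tsix is transcribed against Xist and overlaps it. The other 3 kept their direction in 6 of 6 pairs. A330015K06Rik (chromosome 3) had a lowest, median and highest level of 270.0, 388 and 426 CPM in females and of 165, 211 and 234 in males (log2 fold change 0.88, SE 0.17, limma FDR = 0.0266), without overlap. Serpine2 (chromosome 1), a secreted inhibitor of serine proteases, had 91.7, 132 and 148 CPM in females and 200.1, 217 and 254 in males (-0.93, SE 0.20, limma FDR = 0.0770), without overlap. St6galnac3 (chromosome 3), which adds sialic acid to glycans, had 1165, 1951 and 2498 CPM in females and 805, 1046 and 1256 in males (0.77, SE 0.16, limma FDR = 0.0840), with an overlap by the SOD1G93A female of pool B. These 3 calls were lost without a filter on low values (limma FDR = 0.248, 0.530 and 0.142) and with nuclei thinned to at most 10016 UMIs (0.151, 0.579 and 0.151). Without nuclei with RNA of other types Serpine2 and St6galnac3 were no longer called (limma FDR = 0.378 and 0.278), nor was Serpine2 without the nucleus of most UMIs (0.161), nor either without the largest nucleus of each mouse (0.202 and 0.124), nor was St6galnac3 called without robust eBayes (0.102) or with a minimum count of 30 (0.117). Leaving out 1 mouse ended the call of A330015K06Rik for the SOD1G93A female of pool A. It ended that of Serpine2 for any 1 of 6 mice: the WT female of pool C, the WT males of pools A and C, the SOD1G93A female of pool A and the SOD1G93A males of pools B and C. It ended that of St6galnac3 for the WT male of pool C and the SOD1G93A males of pools B and C.

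Many precursor genes stood lower in females, though none passed the FDR threshold in limma with all OPC nuclei and mice. At an unadjusted p under 0.05, 332 genes were lower (6.82%) and 188 higher (3.86%) in females, and of the 21 precursor genes tested 18 were lower and 0 higher (median log2 fold change -0.72, against -0.02 over all genes). Vcan stood at 642 ± 141 CPM in females and 1137 ± 290 in males (SD, n = 6 each; log2 fold change -0.85, SE 0.19, limma FDR = 0.106). Tnr stood at 2346 ± 342 and 3985 ± 1157 CPM (-0.72, SE 0.18, FDR 0.136), with all females below all males. Pdgfra stood at 98.2 ± 34.6 and 174 ± 45.2 CPM (-0.97, SE 0.25, FDR 0.136), and Ptprz1, a receptor phosphatase with proteoglycan forms, had -0.84 (SE 0.20, FDR 0.124). Of 12 matrix genes 10 were lower (median -0.82), among them Sulf1 (-1.11, SE 0.30) and Chst11 (-0.91, SE 0.24), which edit sulfate on sugar chains. Vcan, Tnr, Cspg4, Ptprz1 and Xylt1 are among these 10 and also among the 18 lower precursor genes. Of 8 committed genes 3 were lower and 0 higher (median -0.43), namely Itpr2 (-0.71, SE 0.20, limma FDR = 0.168), Fyn (-0.48, SE 0.23) and Sirt2 (-0.45, SE 0.21). Of 17 mature oligodendrocyte genes 7 were higher in females and 0 lower (median 0.42), with Opalin at 0.88 (SE 0.28), Mobp at 0.52 (SE 0.17) and Prr5l at 0.52 (SE 0.16). Of 5 astrocyte markers 3 were lower. With edgeR 26 genes differed between the sexes and with DESeq2 38, Vcan, Ptprz1 and Sox6 among both. Vcan passed in 11 of 25 alternatives, among them limma with a minimum count of 30 or without the WT female of pool A. Pdgfra, Ptprz1 and Tnr passed in limma without the SOD1G93A female of pool B.

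The share of OPC nuclei that lay in cluster 15, compared after seeing the data, was higher in females. It was 51.6% ± 8.67 in females and 29.0% ± 10.8 in males (SD, n = 6 each), higher in the female in 6 of 6 pairs. The SOD1G93A females of pools A and C had only 4 and 2 OPC nuclei. In the WT pair of pool A the share was 36.4% in the female and 34.6% in the male. The part of this share in the values by sex was not tested. Within cluster 36 alone, 0 of 18 precursor genes had p under 0.05 for sex (median -0.14), with 1.65% of all genes there lower and 1.69% higher, where the same 18 genes had 16 lower and a median of -0.71 over all OPC nuclei. Matrix genes had 1 of 10 (median -0.18) and mature genes 0 of 11 (median 0.26). Committed genes there had 4 of 7 lower in females at p under 0.05 (median -0.76): Fyn with -0.77 (SE 0.27), Itpr2 with -0.89 (SE 0.35), Tns3 with -0.76 (SE 0.31) and Bcas1 with -0.74 (SE 0.30). Of the 10 nuclei chosen above for the most committed RNA, 8 lay in cluster 36, and 1 of the 10 was from a female. That of the WT male of pool B with 36434 UMIs held 68 of the 497 Fyn UMIs and 67 of the 544 Bcas1 UMIs of cluster 36. The values of committed genes for sex include these nuclei and give no separate support. The part of these nuclei, here and over all OPC nuclei, was not tested. Of 3 cell cycle genes in cluster 36, 2 were higher (median 0.97), Top2a with 3.13 (SE 0.95) and Diaph3 with 0.97 (SE 0.41). The 6 nuclei with at least 5 cell cycle genes, 5 of them from females, lay in cluster 36. They held 14, 7, 6, 6, 1 and 1 UMIs of Top2a, which had too few UMIs for a test over all OPC nuclei. The value of Top2a for sex therefore repeats nuclei chosen with their values in view and gives no separate support. The limma FDR of the committed and cell cycle genes named here for cluster 36 was 0.995. Within cluster 15 alone, 14 of 20 precursor genes were still lower in females at p under 0.05 (median -0.60), against 5.92% of all genes there, as were 7 of 10 matrix genes (median -0.66) and 1 of 8 committed genes (median -0.20), and of 18 mature genes 3 were lower and 0 higher (median -0.27), against 4.27% of all genes higher. In the same sums 3 of 6 neuron markers were higher in females at p under 0.05 (median 0.58), and their part in these values was not tested. Cluster 36 alone had fewer UMIs and 2548 tested genes, against 4170 in cluster 15. Both fits rest on few nuclei in some mice, with 1 nucleus of the SOD1G93A female of pool C in each cluster. The largest cluster 15 nucleus of a female held 331539 UMIs and that of a male 75988. These held 81.0 and 107 precursor UMIs in 10000, where the median of cluster 15 was 158. The part of single nuclei in these values was not tested. Vcan had -0.17 (SE 0.26) in cluster 36 and -0.68 (SE 0.22) in cluster 15, and Pdgfra -0.00 (SE 0.45) and -0.76 (SE 0.26). Of the 3 autosomal DEGs, 0 were called within either cluster, where 0.0785% of genes were called in cluster 36 and 0.192% in cluster 15: A330015K06Rik had 1.09 in cluster 36 and 0.20 in cluster 15, St6galnac3 0.61 and 0.05, and Serpine2 -0.16 and -0.77. The difference of these effects between the clusters was not tested.

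**Figure D5:**
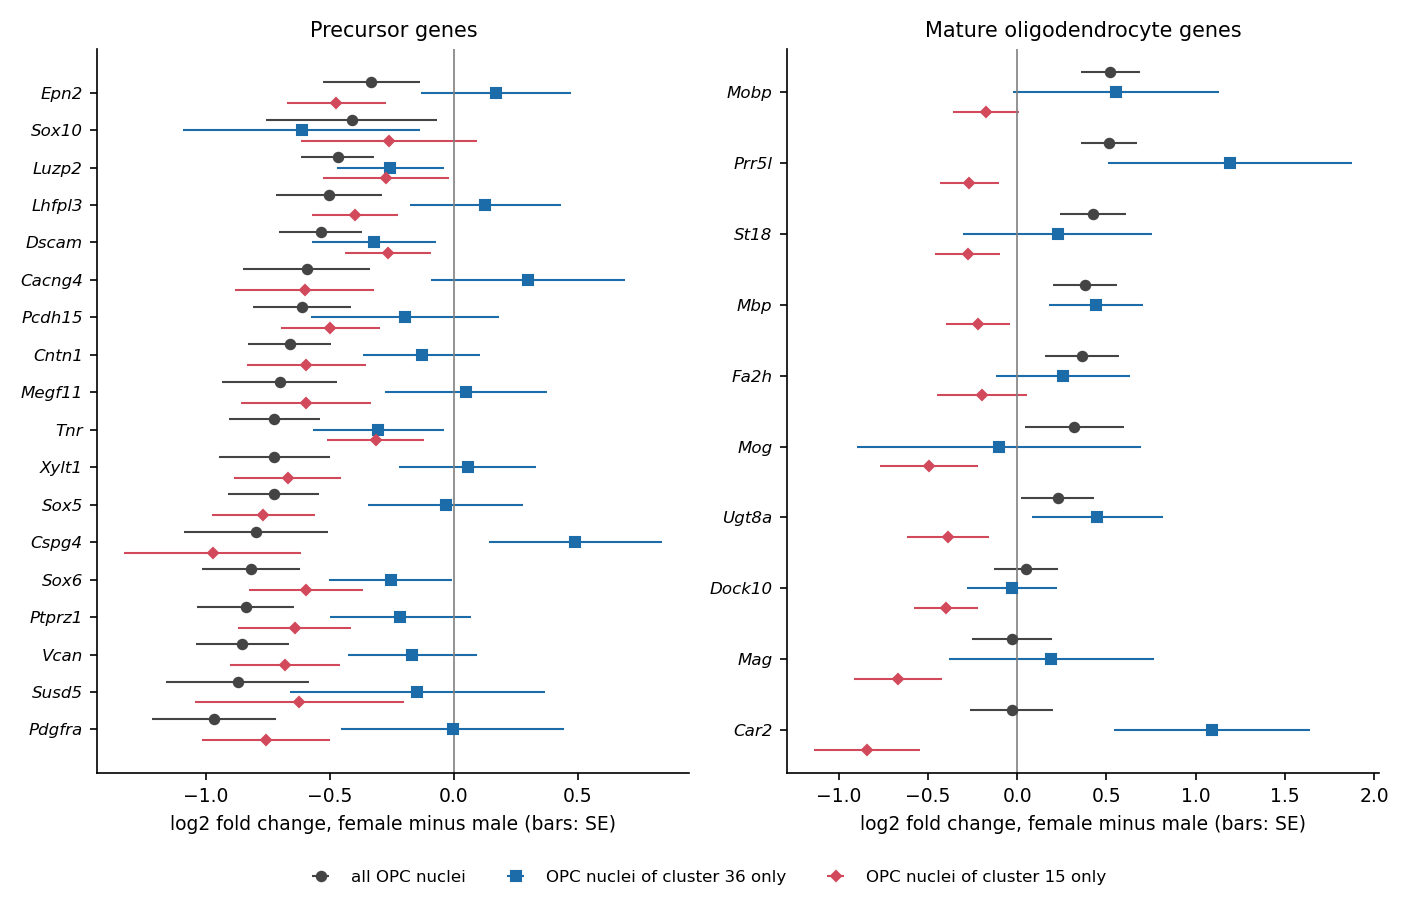
Log2 fold change of females over males with its SE (x axes) for precursor genes (left) and mature oligodendrocyte genes (right) that were tested in all OPC nuclei, in OPC nuclei of cluster 36 only and of cluster 15 only; 10 of the mature genes are drawn. Precursor genes lie below 0 in all nuclei and in cluster 15 and around 0 in cluster 36 (median -0.14), and mature genes lie mostly above 0 in all nuclei but mostly below 0 in cluster 15 (median -0.27 over the 18 genes tested there).

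The genotype effect differed between the sexes for 0 of 4868 genes at FDR < 0.1 in limma, edgeR and DESeq2, with 202 genes at an unadjusted p under 0.05 in limma. Necab1 was among these, with a genotype effect 1.81 lower in males than in females on the log2 scale (difference -1.81, SE 0.52, limma FDR = 0.996). All 37 Necab1 UMIs of the SOD1G93A female of pool A lay in 1 nucleus. The SOD1G93A female of pool C had 1 UMI and the WT female of pool B had 2.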

How the data were processed

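Nuclei of 12 mice in 3 pools were sequenced on the 10x platform. The authors' counts are UMIs per gene and nucleus, deposited without normalization. Per the labels and methods they came from Cell Ranger 3.1 and STAR 2.5.1b on a pre-mRNA reference of mm10, with Seurat 4.0.3 for the later steps. The authors assigned nuclei to mice by hashtag and removed nuclei with few genes, much mitochondrial RNA, several hashtags or none. Deposited by the authors were also the percent of mitochondrial UMIs, the mapping score of each nucleus as a fraction, and its type, cluster and reference label. The integrated values were not used.

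UMIs of OPC nuclei were summed per mouse and fitted with limma 3.58.1 (R 4.3.3). As in the study's methods, filterByExpr, TMMwsp, voom, and terms for the group and the pool were used, here with a minimum of 10 counts over the 4 sex and genotype groups. Robust eBayes is a choice made here, and p-values were adjusted over 4868 genes by Benjamini-Hochberg. Shares of nuclei were tested with edgeR 4.0.16 and, for single values, with exact permutation tests that swap genotypes within the 6 pairs of mice of 1 pool and sex. DESeq2 1.42.0 was an alternative. The scripts were tested on simulated data. The pool term comes from the batches of the labels. Deviations from the group means correlated with a median r of -0.00638 between mice of 1 pool and 0.0125 between mice of different pools and groups, and 1 of 18 same-pool pairs was over 0.1.

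Members, gene lists and tests were chosen with earlier results of these data known. The analyses of clusters 36 and 15 alone and of the cluster 15 share of each mouse were added after seeing the data. So were those without the nucleus of most UMIs, of all mice or of each. The genes named are the DEGs, the 10 higher and 10 lower of smallest p among those with 1 direction in 6 of 6 pairs, the 20 most selective for OPCs, Sod1, the markers, and up to 4 members of each list by level or smallest p. 1 member of the mature oligodendrocyte list is not reported here by name but is in its counts and medians. Any further gene was picked with its values in view. Positions are from GENCODE vM21 (GRCm38, the assembly of mm10), in which 97.9% of 31040 gene symbols matched.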

Additional observations from a re-analysis of the deposited data

Results flagged for a closer look

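In 9 of 76 groups of 6 mice a single mouse lay far from the others by Dixon's ratio, where chance gives about 1 group in 20. Sod1 stood at 372 CPM in the SOD1G93A male of pool A, against 69.3 to 139 in the other SOD1G93A mice. Sergef stood at 222 CPM in the SOD1G93A male of pool C (98.1 to 135 in the others). Kcnd3 stood at 500.3 CPM in the SOD1G93A male of pool C (270.0 to 351) and at 449 CPM in the WT male of pool C (143 to 233), so that this potassium channel was highest in both males of pool C. Nucks1 was at 0 in the SOD1G93A female of pool C (23.1 to 36.7 in the others), and Uty was at 67.5 CPM there (0 to 9.24 in other females). That mouse has 2 OPC nuclei and 11083 UMIs, and its Uty value is 1 UMI. Tsix stood at 148 CPM in the WT female of pool B (43.6 to 69.3). In the SOD1G93A male of pool B, Xist stood at 162 CPM (0 to 31.5 in other males) and Tsix at 11.5 CPM, where other males had 0. Its 28 Xist UMIs lay in 4 of 19 nuclei, with 12 in 1 of them, and its source was not tested.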

How the results depend on the processing

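DEGs between genotypes numbered 2 and between sexes 9. With edgeR they were 3 and 26, with DESeq2 5 and 38, without a count filter 9 and 6, when 30 counts were required 0 and 5, with nuclei thinned to at most 10016 UMIs 0 and 2, and without nuclei with RNA of other types 0 and 4. In analyses added after seeing the data, cluster 36 alone gave 0 and 2, cluster 15 alone 12 and 8, and all nuclei but the largest of each mouse 0 and 11, of which 5 were among the 9. Without the pool block they were 0 and 16, with Necab1 at 1.26 (limma FDR = 0.684) and Pcsk5 at 1.38 (FDR 0.197), and without the block the OPC share of nuclei had a log2 ratio of -0.55 and that of the lineage an exact p of 0.085. Without it Vcan also passed the threshold by sex (FDR 0.0577), and it changed no other call of the genes named. Without 1 mouse, genotype DEGs ranged from 0 (WT male C or SOD1G93A male C) over 1 (WT female A, SOD1G93A female A or SOD1G93A male A), 6 (SOD1G93A female C or male B), 7 (SOD1G93A female B) and 8 (WT male A) to 10 (WT male B). Sex DEGs ranged from 7 to 191, with 191 without WT male B, 45 without SOD1G93A female B, 32 and 25 without WT females A and B, 31 without SOD1G93A male A and 19 without SOD1G93A female C. Genes whose genotype effect differed between the sexes ranged from 0 to 1 (1 without WT male B), and those that differed from oligodendrocytes from 0 to 1 (1 without WT female B, and 1 with oligodendrocytes drawn to the number of OPC nuclei). Sod1 passed the threshold with edgeR (1.76), DESeq2 (1.82), without a filter (1.64) and in cluster 15 (2.10), and ranged from 1.15 to 2.32 without 1 mouse. Cep97 turned to 0.15 after thinning. The difference in nuclei with committed genes turned to -3.28 points with at least 2 genes, lay between 7.03 and 9.71 points with at least 4 genes, no thinning, cluster 36 alone or no nuclei with RNA of other types, and without 1 pair of mice ranged from -3.88 (without the female pair of pool C; -3.64 without that of pool B) to 4.84 points. The OPC share of nuclei kept its direction, from -0.95 to -0.26 on the log2 scale, and so did that of the lineage, from -4.53 to -1.85 points, in all 18 and 15 alternatives. The causes were not tested. Of 567 values of 24 named genes, 502 kept direction and side of the threshold. Most of these genes were not called in the main fit, so that this count says little about the calls. Of the called genes, Necab1 kept both in 13 of 22 alternatives and Pcsk5 in 13 of 25. By sex, A330015K06Rik kept both in 20 of 25, St6galnac3 in 14 of 25 and Serpine2 in 12 of 25. Of the mice, depth limits most the SOD1G93A female of pool C. Among the lists of OPC biology, 2 of 36 cell cycle genes and 2 of 16 immune genes had enough UMIs for a test. The same held for 7 of 20 brakes and 11 of 28 stress genes.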

Other observations

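The SOD1G93A male of pool B had the lowest share of OPC nuclei in cluster 15, at 10.5% (2 of 19), and its OPC sum had the highest Vcan (1438 CPM) and Tnr (5565 CPM) of all 12 mice. Of the 108 nuclei that the deposited reference mapping named OPC, 86 carried the label OPC, and the other 22 were labelled astrocytes (6), Schwann and meningeal cells (6), neurons (4), oligodendrocytes (4) and microglia (2).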
